A study of Mus musculus with 24 samples.

Results

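The Ifit, Oasl and Oas genes encode antiviral proteins that bind RNA. Of the 9 genes named for this description (Ifit1, Ifit2, Ifit3, Oasl1, Oasl2, Oas1a, Oas1b, Oas2 and Oas3), 8 were measured by a probe set carrying that symbol alone, out of 22180 genes measured in this way. Each of the 8 had 1 such probe set, so no choice between probe sets was needed. Oas1a appeared only on a probe set that also lists Oas1g, and it is not among the 8.

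RNA came from the cortex of male mice aged 18 days of the strains SV129, FVB, C57 (C57BL/6JOlaHsd) and C3H. In each strain 3 arrays held RNA from mice given CBE by intraperitoneal injection at 25 mg per kg per day, and 3 held RNA from mice given PBS by the same route over the same days, which gave 8 groups and 24 arrays. The injections ran from postnatal day 8 to day 18, and the labels name no transgene or mutation in any group. CBE (conduritol B-epoxide) blocks the lysosomal enzyme glucocerebrosidase, the enzyme deficient in Gaucher disease, and the treated mice served as a chemical model of its neuronopathic form. The model inhibits the enzyme in the whole animal from the second postnatal week and not from birth. The labels number the 3 samples of each group without saying in words that each came from another mouse. The p-values therefore measure the spread between these samples.

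When a cell senses viral RNA or stray self RNA, it secretes type I interferon, and a transcription factor complex holding Stat2 and Irf9 then switches on a common set of genes at a short promoter sequence, the interferon-stimulated response element. The Ifit proteins, products of that program, grip the ends of foreign RNA and keep it from being translated. The Oas enzymes bind double-stranded RNA and make 2-5A, a short chain of linked adenosines that acts as a signal for RNA breakdown, while the Oasl proteins share the Oas fold and carry ubiquitin-like domains. In the brain, microglia, astrocytes and neurons can all express these genes after interferon.

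The promoters of 4 members are shown to set 2 genes that rose over the 4 strains (Ifit1 and Oasl2) beside 2 that did not pass the test there (Ifit3 and Oas3). Each is the stretch of 250 bases before the RefSeq transcription start (GRCm38.p6), written 5′ to 3′ on the gene's own strand. Capitals mark matches to GAAANNGAAA, the core of the interferon-stimulated response element, read on both strands. The Ifit1 window lies at chr19:34640639-34640888 and the Ifit3 window at chr19:34583279-34583528, both on the plus strand. The Oasl2 window lies at chr5:114896684-114896933 on the plus strand and the Oas3 window at chr5:120777660-120777909 on the minus strand.
Ifit1: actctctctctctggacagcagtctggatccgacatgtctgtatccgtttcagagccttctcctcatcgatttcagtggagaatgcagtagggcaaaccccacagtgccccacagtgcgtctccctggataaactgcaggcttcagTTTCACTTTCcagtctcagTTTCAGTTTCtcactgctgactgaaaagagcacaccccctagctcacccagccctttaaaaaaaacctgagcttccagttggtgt
Oasl2: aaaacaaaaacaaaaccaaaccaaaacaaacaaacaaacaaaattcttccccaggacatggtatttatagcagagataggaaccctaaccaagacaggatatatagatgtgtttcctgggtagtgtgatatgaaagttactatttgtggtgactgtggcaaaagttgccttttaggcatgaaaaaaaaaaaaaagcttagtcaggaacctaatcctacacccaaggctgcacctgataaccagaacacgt
Ifit3: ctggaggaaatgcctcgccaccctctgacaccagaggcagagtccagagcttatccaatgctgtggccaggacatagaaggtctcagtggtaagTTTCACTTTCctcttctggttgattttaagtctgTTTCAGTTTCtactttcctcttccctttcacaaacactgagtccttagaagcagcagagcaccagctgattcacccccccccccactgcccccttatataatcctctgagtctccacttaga
Oas3: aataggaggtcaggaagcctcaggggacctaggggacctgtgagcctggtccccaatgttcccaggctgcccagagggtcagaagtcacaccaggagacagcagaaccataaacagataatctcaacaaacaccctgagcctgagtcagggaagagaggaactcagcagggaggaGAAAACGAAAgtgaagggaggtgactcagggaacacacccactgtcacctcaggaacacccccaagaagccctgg

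RefSeq promoter entries matched 7 of the 9 members (none was listed for Oas1b and Oas2), with 8 windows because Ifit2 had a second start. The response element core was found in 4 of the 7 genes. Ifit1 and Ifit3 each held 2 separate matches on the other strand, Oas1a held 2 overlapping matches close to the start, and Oas3 held 1. No match to these letters was found in the windows of Ifit2, Oasl1 and Oasl2. Over 32851 promoter windows of this length, 978 (2.98%) held the core. A second motif, TTCNNNGAA, the core of the interferon-gamma activated site, was found in Ifit2 and Oas1a and in 7.02% of all windows. A match is a description of letters and not a sign of binding. Ifit1, which rose with CBE, and Ifit3, which gave no difference that passed the test, each hold 2 matches, while Oasl2, which rose, holds none in its window.

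**Figure D1:**
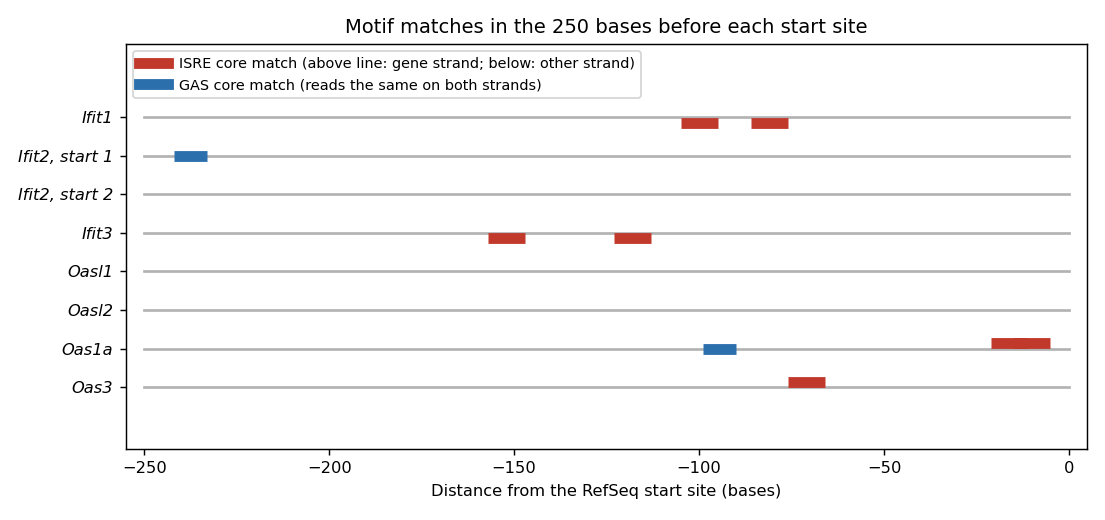
Positions of motif matches in the 250 bases before the RefSeq start of each member with an entry (horizontal axis, bases from the start site; 1 line per window). Ifit1, Ifit3, Oas1a and Oas3 carry response element matches, and Ifit2 and Oas1a carry an activated-site match.

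The genes lie in 2 families of neighbours. Only protein-coding genes and transcribed pseudogenes were counted as genes between them. In RefSeq order on chromosome 19, Ifit2, Ifit3, Ifit1bl1, Ifit3b, Ifit1bl2 and Ifit1 follow each other with no other gene between them. On chromosome 5, Oasl2 and Oasl1 are adjacent, and after 60 other genes come Oas2, Oas3 and the Oas1 copies without interruption. RefSeq lists Oas1b as a transcribed pseudogene. Its full-length form is known for protecting mice against flaviviruses, and many laboratory strains, C57BL/6 among them, carry a version cut short by a stop codon.

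The arrays were alike in scale, with medians between 4.14 and 4.22 (all values are log2 signal). Over all 41034 probe sets, arrays of the same group correlated at 0.989 to 0.993. Marker lists of cell types were averaged on each array. None was chosen to separate cortex from other brain regions, so they do not test the cortex label. The 8 measured neuron markers averaged 9.60 to 9.80 on the CBE arrays and 9.65 to 9.88 on the PBS arrays. The 8 lymphocyte markers averaged 3.51 to 3.69 on CBE arrays and 3.49 to 3.67 on PBS arrays, below the median of all values (4.18). The 7 monocyte and neutrophil markers averaged 3.62 to 3.83 on CBE arrays and 3.67 to 3.78 on PBS arrays. Oligodendrocyte markers (5 measured) varied more, from 8.13 to 9.52 on CBE arrays and 7.71 to 9.52 on PBS arrays. Within a group they varied too, with 9.13, 9.52 and 8.46 on the C57 CBE arrays. Choroid plexus and meninges markers averaged 4.44 to 5.20 on CBE arrays and 4.56 to 5.30 on PBS arrays. Whether tissue content differed between arrays was not tested.

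Among the Ifit genes, Ifit1, which binds RNA whose 5′ end lacks the methyl marks of a finished cellular cap, changed by far the most. In CBE-treated SV129 cortex its log2 signal was 6.48, 5.72 and 6.54 on the 3 arrays, against 4.05, 4.31 and 4.31 with PBS. In FVB it was 6.93, 7.62 and 7.09 with CBE, against 4.40, 4.39 and 4.60 with PBS. The ranges of the agents were therefore far apart in both strains. C57 cortex gave the highest values, 8.36, 8.60 and 9.10 with CBE, against 5.44, 5.31 and 5.97 with PBS. C3H cortex gave 8.28, 7.03 and 6.74 with CBE, against 4.75, 5.28 and 4.78 with PBS. In each of the 4 strains every CBE array lay above every PBS array, although the lowest SV129 CBE array (5.72) lay below the highest C57 PBS array (5.97).

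Ifit1 was higher with CBE by 2.58 ± 0.15 log2 units (SE; mean of 4 strains; 95% interval 2.26 to 2.89), or 5.96-fold, and 12 of 12 CBE arrays lay above the PBS mean of their own strain. The adjusted p was 1.66e-09 (limma, Benjamini-Hochberg over 22180 genes, as for every adjusted p here), the smallest of all genes, and the rise was also the largest of all. By strain the rise was 2.02 for SV129 (adjusted p = 0.00447), 2.75 for FVB (6.44e-05), 3.12 for C57 (5.49e-06) and 2.41 for C3H (8.50e-04), each ± 0.30 (SE, n = 3 against 3). In SV129 and C57 it was the largest rise of any gene. The C3H call was lost with only the C3H arrays in the fit (adjusted p = 0.601), where 0 of all 22180 genes passed. The SV129 call was lost in an ordinary linear model (adjusted p = 0.0506), where 7 genes passed and 0 of them rose. In bulk cortex, more cells that express a gene and more RNA per cell cannot be told apart, here and for each result that follows.

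Ifit2, which binds AU-rich double-stranded RNA and in mice protects neurons against several viruses, rose by a smaller amount. Its signal with CBE was 4.34, 4.21 and 4.01 in SV129, against 3.94, 4.48 and 4.05 with PBS. In FVB it was 3.93, 4.31 and 4.35 with CBE, against 3.69, 3.77 and 3.58 with PBS. The SV129 values overlapped and the FVB values did not. C57 gave 4.74, 4.55 and 5.13 with CBE, against 3.94, 3.89 and 4.05 with PBS, and C3H gave 4.76, 4.74 and 4.42 with CBE, against 4.03, 4.03 and 4.05 with PBS. Every CBE array lay above every PBS array in FVB, C57 and C3H. Over the 4 strains Ifit2 rose by 0.50 ± 0.07 (95% interval 0.35 to 0.65), 1.41-fold, with an adjusted p of 4.63e-04 and 11 of 12 CBE arrays above the PBS mean of their strain. Of the single strains only C57 passed the threshold of 0.05 (0.84 ± 0.15, adjusted p = 0.00639). That call was lost without the third C57 CBE array (adjusted p = 0.0838) or the second C57 PBS array (0.0521).

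Ifit3, a partner that in human cells strengthens the grip of IFIT1 on RNA, gave no difference that passed the test. Its 12 CBE arrays ran from 4.89 to 5.69 with a median of 5.33, and its 12 PBS arrays from 5.02 to 5.52 with a median of 5.27. The agents overlapped in all 4 strains. The difference was 0.04 ± 0.08 (95% interval -0.14 to 0.21; adjusted p = 0.938), and the CBE and PBS group means lay within 0.11 of each other in each strain. The upper limit of that interval lies below the lower limit for Ifit2 (0.35), although the difference between these probe sets was not tested. Ifit3b is a close copy of Ifit3, and whether their probes tell the 2 transcripts apart was not tested. Ifit3b differed by 0.19 ± 0.10 (adjusted p = 0.523).

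Oasl2, which in mice keeps the ability to make 2-5A, followed Ifit1 closely. With CBE the SV129 arrays read 5.52, 4.86 and 5.52, against 4.06, 4.11 and 4.15 with PBS. The FVB arrays read 5.89, 6.90 and 6.17 with CBE, against 4.14, 4.05 and 3.94 with PBS. No CBE array of either strain reached down to its PBS arrays. In C57 the readings were 7.76, 8.45 and 8.65 with CBE, against 5.17, 5.16 and 5.62 with PBS. In C3H they were 7.49, 6.13 and 5.64 with CBE, against 4.13, 4.44 and 3.84 with PBS. The groups were separate in these strains too, and the 3 C3H CBE arrays were spread over 1.85 log2 units, the widest group for this gene.

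The rise of Oasl2 over the 4 strains was 2.18 ± 0.17 (95% interval 1.83 to 2.53), or 4.53-fold (adjusted p = 5.12e-08, 12 of 12 CBE arrays above the PBS mean of their strain), the second largest of all genes after Ifit1. It passed the threshold in FVB (2.28, adjusted p = 0.00160), C57 (2.97, 3.79e-05) and C3H (2.28, 0.00655), each ± 0.33. The C3H call was lost in an ordinary linear model (adjusted p = 0.0836). It was also lost with only the C3H arrays in the fit (0.9998), where 0 of all 22180 genes passed. In SV129 the difference was 1.19 ± 0.33 with an adjusted p of 0.132, although its 3 CBE arrays lay above the 3 PBS arrays.

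Oasl1, which lacks 2-5A synthesis and in mice holds back translation of the interferon regulator Irf7, lay close to the dim end of the array. With CBE it read 3.42, 3.20 and 3.41 in SV129, against 3.36, 3.40 and 3.41 with PBS, and 3.68, 3.47 and 3.57 in FVB, against 3.31, 3.35 and 3.41 with PBS. With CBE it read 3.76, 4.04 and 4.20 in C57, against 3.34, 3.33 and 3.43 with PBS, and 3.82, 3.40 and 3.46 in C3H, against 3.47, 3.35 and 3.31 with PBS. The agents overlapped in SV129 and C3H and were separate in FVB and C57. The rise over the 4 strains was 0.25 ± 0.05 (95% interval 0.14 to 0.36), or 1.19-fold (adjusted p = 0.0212, 11 of 12 CBE arrays above the PBS mean of their strain). In C57 alone it was 0.63 ± 0.10 (adjusted p = 0.00393), a call lost without the third C57 CBE array (0.0572) and with only the C57 arrays in the fit (0.0522). The call over the 4 strains was lost without the third C3H PBS array (adjusted p = 0.0509) and in an ordinary linear model (0.0572).

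The differences of the Oas enzymes were small. Oas2, an enzyme built of 2 joined Oas units, read 3.67, 3.68 and 3.76 with CBE in SV129, against 3.53, 3.58 and 3.57 with PBS, and 3.79, 4.13 and 3.72 with CBE in FVB, against 3.61, 3.49 and 3.85 with PBS. It read 4.07, 4.57 and 4.77 with CBE in C57, against 3.85, 3.69 and 3.92 with PBS, and 4.26, 3.84 and 3.74 with CBE in C3H, against 3.57, 3.54 and 3.58 with PBS. Only the FVB groups overlapped. Over the 4 strains Oas2 rose by 0.35 ± 0.07 (95% interval 0.20 to 0.51), or 1.28-fold (adjusted p = 0.0188, 12 of 12 CBE arrays above the PBS mean of their strain). The call was lost in an ordinary linear model (adjusted p = 0.0713) and with the replicate number as a block (0.0552). No single strain passed the threshold. The nearest was C57, at 0.65 ± 0.15 with an adjusted p of 0.0684, which was 0.00311 without the first C57 CBE array and 0.0177 without the first C3H CBE array.

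Oas1b read 3.99, 3.86 and 4.21 with CBE in C57, against 3.60, 3.61 and 3.60 with PBS, and the C57 groups were separate. In the other strains its CBE and PBS ranges overlapped. The C57 difference of 0.41 ± 0.09 passed the threshold (adjusted p = 0.0322), but leaving out any of 5 of the 6 C57 arrays ended the call, with adjusted p-values of 0.0767 and 0.324 without the first and the third CBE array. Over the 4 strains the difference was 0.18 ± 0.04 (95% interval 0.09 to 0.27; adjusted p = 0.0569; 10 of 12 CBE arrays above the PBS mean of their strain). Oas3, the large enzyme that prefers long double-stranded RNA, ran from 3.40 to 3.78 with CBE and from 3.33 to 3.63 with PBS. Its difference was 0.10 ± 0.04 (95% interval 0.03 to 0.18), which did not pass the test (adjusted p = 0.277). In C57 its 3 CBE arrays (3.63, 3.70 and 3.78) lay above its 3 PBS arrays (3.38, 3.44 and 3.33), with a difference of 0.32 ± 0.07 and an adjusted p of 0.0787.

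**Figure D2:**
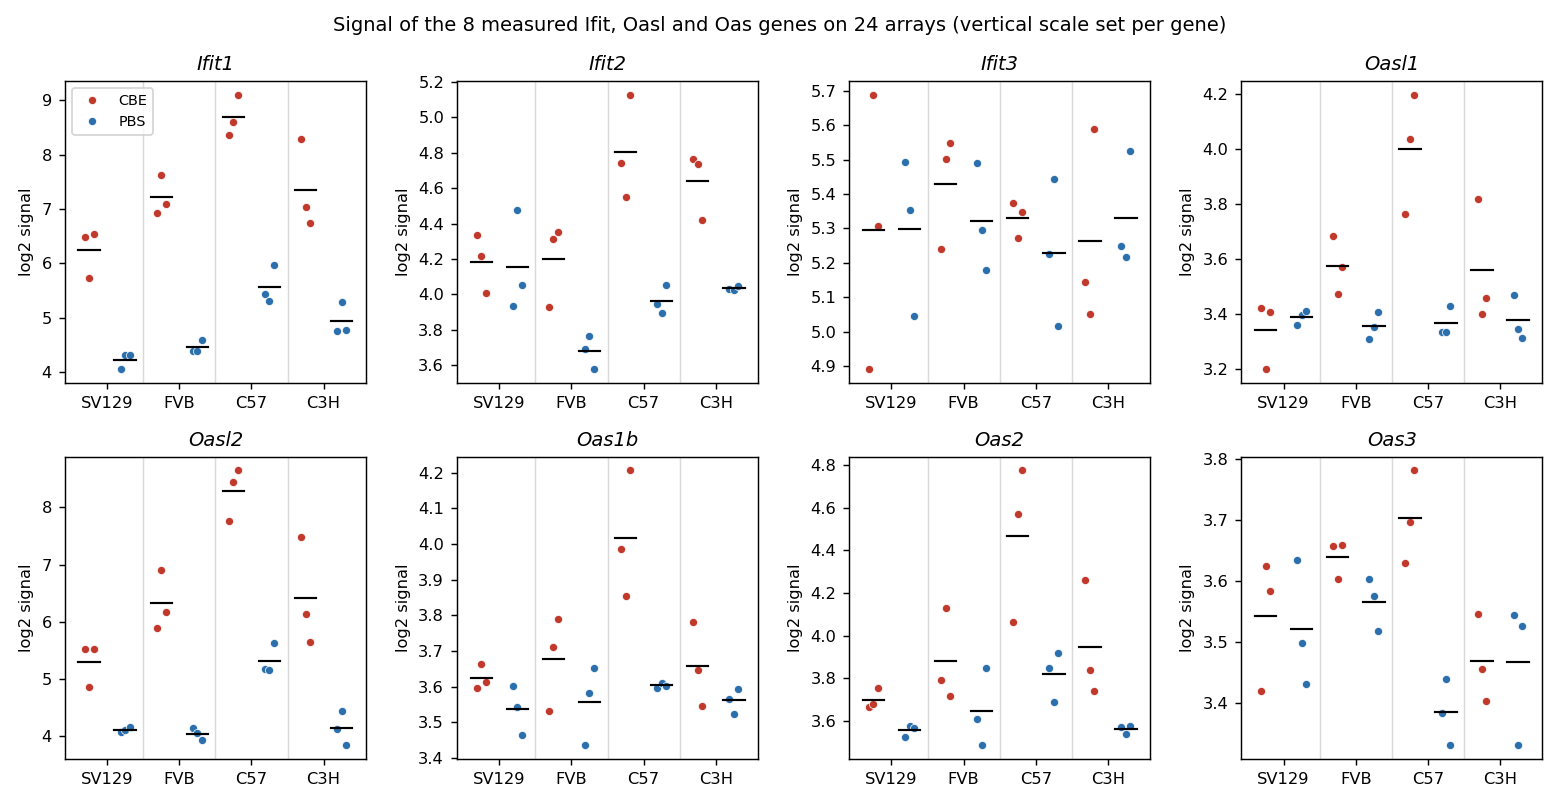
Log2 signal of the 8 measured genes on each of 24 arrays, with the 3 CBE arrays (red) left of the 3 PBS arrays (blue) of each strain and a bar at each group mean. The vertical scale is set per gene: Ifit1 and Oasl2 span several log2 units with no overlap of the agents in any strain, while Ifit3 spans less than 1 unit with overlap in all 4.

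Over the 4 strains, 5 of the 8 members (Ifit1, Oasl2, Ifit2, Oas2 and Oasl1) rose and none fell, where 0.609% of all genes rose and 0.117% fell. Taken strain by strain, C57 had 5 of 8 rises (0.316% of all genes rose there), FVB 2 of 8 (0.135%), C3H 2 of 8 (0.0361%) and SV129 1 of 8 (0.0135%). Every CBE array lay above every PBS array for 7 of 8 members in C57 (5.82% of all genes), 4 of 8 in FVB (5.09%), 4 of 8 in C3H (4.5%) and 3 of 8 in SV129 (6.52%). Only Ifit1 and Oasl2 did so in all 4 strains, as did 0.144% of all genes. All 12 CBE arrays lay above the PBS mean of their strain for 3 of 8 members, Ifit1, Oasl2 and Oas2, and for 0.546% of all genes. The median difference of the 8 was 0.30, against -0.01 over all genes. The members differed widely in level as well: the PBS means of Ifit1, Ifit3 and Oasl2 lay above the median of all values and those of the other 5 below it. With only the arrays of the strain in the fit, SV129 and FVB kept their counts of 1 and 2, C57 had 3 (Ifit1, Ifit2 and Oasl2) and C3H had 0. Of all 22180 genes, 4 passed in that fit for SV129, 58 for FVB, 101 for C57 and 0 for C3H.

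**Figure D3:**
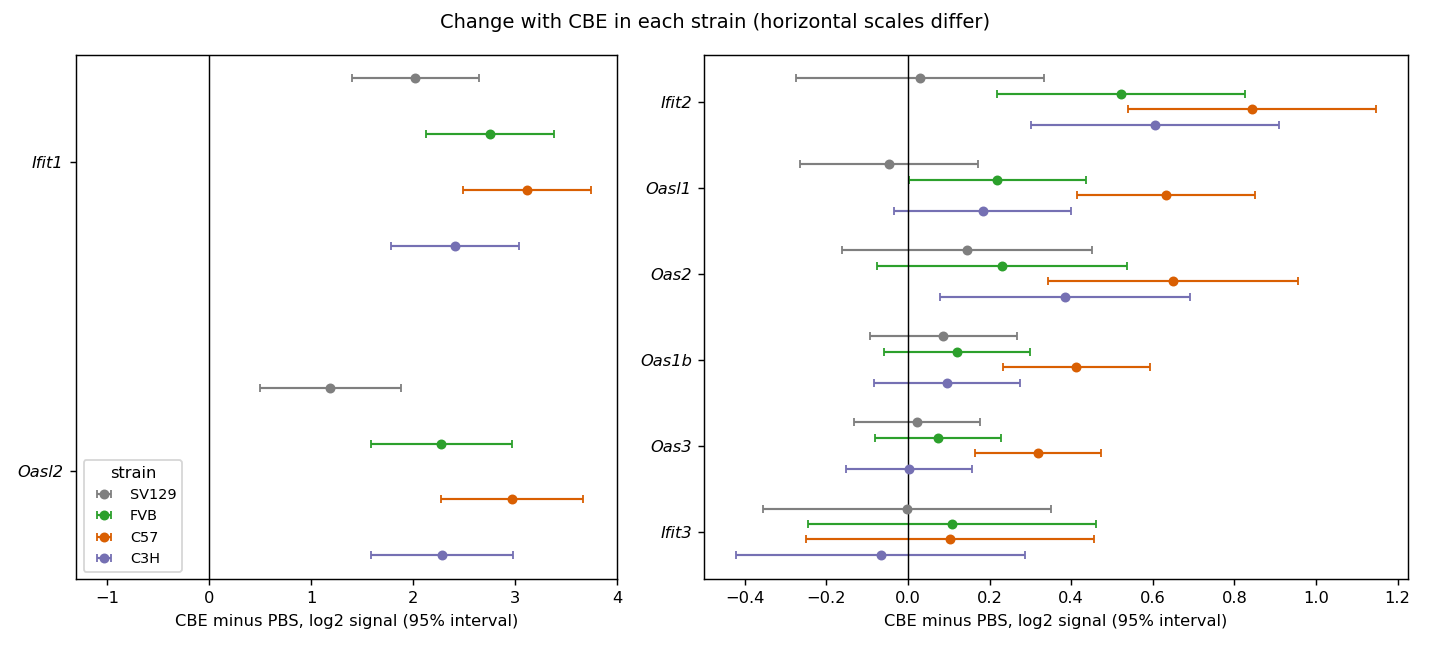
CBE minus PBS difference in log2 signal of each gene in each strain (points) with its 95% interval (lines, limma). The left panel shows Ifit1 and Oasl2 on a wider scale, with every interval above 0, and the right panel shows the other 6, where the C57 point is the highest for each gene but Ifit3.

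Most members shared the strain with the highest difference and the strain with the lowest, while the order of FVB and C3H varied between members. The difference was highest in C57 for 7 of 8 (23.3% of all genes had their highest difference in C57) and lowest in SV129 for 6 of 8 (29.6%), with both true for 6 of 8 (10.4%). For Ifit3 it was highest in FVB, and for Ifit3 and Oas3 it was lowest in C3H. An F-test for unequal differences among the strains passed for none of the members after adjustment (0.00902% of all genes passed), with adjusted p-values from 0.441 for Oasl1 to 0.980 for Ifit3. At an unadjusted p under 0.05 it counted 5 of 8 (6.57% of all genes): Oasl1, Ifit2, Oasl2, Oas3 and Oas1b. The largest gap between SV129 and C57 was that of Oasl2, whose difference was lower in SV129 by 1.78 (difference -1.78, 95% interval -2.76 to -0.80, adjusted p = 0.275). For Ifit1 the same gap was -1.09 (95% interval -1.98 to -0.21, adjusted p = 0.448), for Ifit2 -0.81 (-1.24 to -0.38, 0.268) and for Oasl1 -0.68 (-0.99 to -0.37, 0.129). In the 6 comparisons between pairs of strains no member passed, against 0.0361% of all genes for SV129 minus C57, 0.00451% for FVB minus C57, FVB minus C3H and C57 minus C3H, and 0% for the other pairs, so a call in C57 without one in SV129 does not show that the strains differ.

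Under PBS, 2 of 8 members, Ifit1 and Oasl2, passed the F-test for unequal levels over the 4 PBS groups, where 13% of all genes passed. Whether the members exceed that share was not tested. Both calls were lost in an ordinary linear model (adjusted p = 0.0518 for Ifit1 and 0.0757 for Oasl2). Ifit1 averaged 5.57 ± 0.35 in C57, 4.94 ± 0.30 in C3H, 4.46 ± 0.12 in FVB and 4.22 ± 0.15 in SV129 (SD, n = 3 each; limma adjusted p = 0.0147). For Oasl2 the average was 5.32 ± 0.26 for C57, 4.13 ± 0.30 for C3H, 4.11 ± 0.05 for SV129 and 4.04 ± 0.10 for FVB (SD, n = 3 each; limma adjusted p = 0.0252). C57 was thus the highest strain for both. Ordered by Ifit1 level, the strains ran SV129, FVB, C3H and C57, and no neighbours in that order differed beyond the test (adjusted p = 0.757, 0.582 and 0.253). SV129 lay below C57 by 1.35 for Ifit1 (difference -1.35, adjusted p = 0.00681) and FVB lay below C57 by 1.11 (difference -1.11, adjusted p = 0.0241). For Oasl2, SV129, FVB and C3H each lay below C57, and no pair among the other three strains differed beyond the test (adjusted p = 0.954 to 0.991). The differences from C57 were -1.21 for SV129 minus C57 (adjusted p = 0.0280), -1.28 for FVB minus C57 (0.0197) and 1.18 for C57 minus C3H (0.0342). In these 3 pairs 2, 2 and 1 of the 8 members passed, where 7.72%, 7.91% and 6.7% of all genes did. No member passed for SV129 minus FVB (3.88% of all genes), SV129 minus C3H (2.34%) or FVB minus C3H (2.28%).

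The other 6 members gave no PBS difference that passed, with adjusted p-values from 0.121 for Ifit2 to 0.996 for Oasl1. C57 had the highest PBS mean for 4 of 8 members (24.5% of all genes). The PBS calls rest on the 3 C57 PBS arrays: without the third, which had the highest Ifit1 and Oasl2 of its group (5.97 and 5.62), neither gene passed, and without the first or the second only Ifit1 did. The microglia markers averaged 6.90, 6.85 and 7.09 on the C57 PBS arrays, against 6.41 to 6.94 on the PBS arrays of the other strains, and their part in this difference was not tested. Probes are made to 1 reference sequence, so a difference in transcript level and a difference in probe match between strains cannot be told apart in the PBS comparison.

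Ifit1 and Oasl2, the most correlated pair of members, moved together from array to array. Over the 24 arrays their Pearson correlation was 0.975, a value that includes the differences between the 8 groups. Among deviations from the group mean it was 0.970 over the 12 CBE arrays and 0.787 over the 12 PBS arrays (a description, since all genes of an array share its RNA). The other pairs of members reached down to -0.422 over the CBE arrays (Ifit3 and Oasl1) and to -0.850 over the PBS arrays (Ifit1 and Oas3). The first C3H CBE array was the highest of its group for 7 of 8 members, and the third was the lowest for 6 of 8. In C57, the third CBE array was the highest for 7 of 8. The first C3H CBE array also had the highest microglia marker mean of the study, 7.50, against 6.91 and 6.98 on the other C3H CBE arrays. Whether microglia content has a part in its values was not tested. Without that array the C3H difference was 1.95 for Ifit1 (adjusted p = 0.00221) and 1.75 for Oasl2 (adjusted p = 0.0195).

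**Figure D4:**
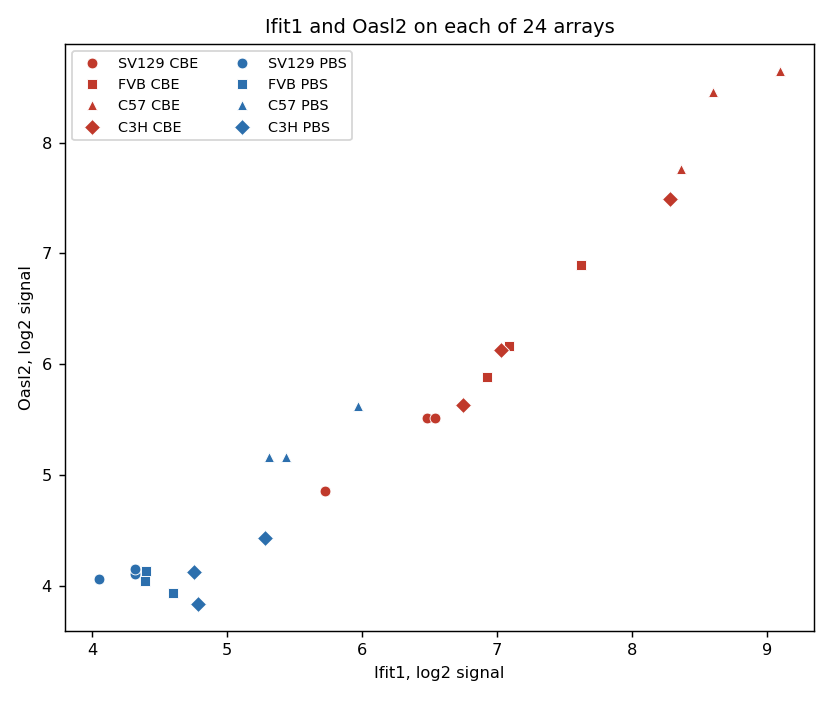
Log2 signal of Oasl2 (vertical) against Ifit1 (horizontal) on each of 24 arrays, with CBE in red, PBS in blue and a symbol per strain. The points lie along 1 band (r = 0.975), with the C57 CBE arrays and the first C3H CBE array at the top and the C57 PBS arrays above the other PBS arrays.

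Correlation with the mean of the 8 members differed between them, from 0.990 for Oasl2 and 0.981 for Ifit1 through 0.904 for Oas2 to 0.505 for Oas3 and 0.01 for Ifit3 (24 arrays; each gene is part of that mean). Outside the members, the 8 genes most like that mean were Rnf213 (r = 0.977), Ifih1 (0.971), Usp18 (0.970), Irf7 (0.968), Rtp4 (0.967), Cxcl10 (0.960), Ifitm3 (0.950) and Gbp3 (0.950), over the same 24 arrays. The mean was taken over unscaled log2 values, so Ifit1 and Oasl2, which vary most, weigh most in it. These correlations include the differences between the groups.

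Of 9 measured close relatives of the members, 1 rose and none fell (0.609% and 0.117% of all genes). The gene that rose was Oas1g, a copy of the enzyme Oas1, which was higher by 0.47 ± 0.06 (adjusted p = 2.08e-04) with 12 of 12 CBE arrays above the PBS mean of their strain, and by 1.07 ± 0.13 in C57 (adjusted p = 9.61e-05). Its promoter, like that of Oas1a, held 2 overlapping response element matches close to the start. Ifit1bl1 had a difference of -0.28 ± 0.08 (adjusted p = 0.152) and Oas1c one of 0.06, and the differences of Ifit1bl2, Oas1d, Oas1e, Oas1f and Oas1h lay between -0.03 and 0.03. Pde12, which degrades 2-5A, differed by -0.09 ± 0.07 (adjusted p = 0.678). Abce1, known for its part in ribosome recycling, differed by -0.10 ± 0.03 (adjusted p = 0.226).

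For comparison with the counts that follow, 0.609% of all genes rose and 0.117% fell, with a median difference of -0.01. Around these families, 7 of 9 measured genes of RNA sensing rose and none fell (median difference 0.53). They included Ifih1, which senses long double-stranded RNA (1.00 ± 0.11, adjusted p = 7.86e-06), Ddx58, which encodes RIG-I (0.68 ± 0.09, 1.27e-04), and Eif2ak2, the kinase PKR (0.72 ± 0.10, 2.37e-04). In the interferon signalling list 3 of 11 rose and none fell: Irf7 (1.25 ± 0.14, adjusted p = 1.82e-05), Stat2 (0.54 ± 0.06, 2.82e-05) and Irf9 (0.85 ± 0.10, 3.82e-05), the last 2 being partners in the factor that binds the response element. Of 23 other interferon-stimulated genes 19 rose and none fell (median 0.52). Rsad2, known as viperin, rose by 0.71 ± 0.05 (adjusted p = 1.89e-08), Isg15, a ubiquitin-like modifier, by 1.34 ± 0.09 (1.89e-08) and Usp18, which removes it, by 2.09 ± 0.15 (2.11e-08). None of the 13 measured interferon genes passed the test in limma (median difference 0.02). At an unadjusted p under 0.05 none did either, the smallest being 0.0895 for Ifna1 (difference -0.15 ± 0.08, adjusted p = 0.551). Mean levels of these 13 genes ran from 3.09 to 5.91, on both sides of the median of all values (4.18). Near the dim end of the array a change can be understated.

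Few cell type markers passed the test. Of 7 microglia markers 1 rose, where 0.609% of all genes did. It was Csf1r, the receptor microglia need to survive (0.29 ± 0.06, adjusted p = 0.0334). The median difference of the 7 markers was 0.17, against -0.01 over all genes. Their mean per array ran from 6.55 to 7.50 with CBE and from 6.41 to 7.09 with PBS. In SV129 that mean was 6.62, 6.66 and 6.55 with CBE, against 6.77, 6.41 and 6.56 with PBS. In FVB it was 6.88, 6.85 and 6.77 with CBE, against 6.69, 6.73 and 6.67 with PBS. The agents overlapped in SV129 and were separate in FVB. In C57 it was 7.16, 7.11 and 7.25 with CBE, against 6.90, 6.85 and 7.09 with PBS. In C3H it was 7.50, 6.91 and 6.98 with CBE, against 6.79, 6.77 and 6.94 with PBS. The C57 groups were separate, and the second C3H CBE array lay below the third C3H PBS array. None of the markers of astrocytes (0 of 6), neurons (0 of 8), oligodendrocytes (0 of 5), endothelium (0 of 6), lymphocytes (0 of 8), monocytes and neutrophils (0 of 7) or choroid plexus and meninges (0 of 6) passed the test. The part of microglia in the members' rise was not tested.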

How the data were processed

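The authors deposited log2 values for 41034 probe sets on each array. Partek and RMA (robust multi-array average) are named in the submitters' processing notes, without versions or settings. The labels' protocols give column-purified, DNase-treated total RNA and the GeneChip WT PLUS kit. The base of the logarithm was inferred from the highest value (14.09). Arrays carry no read depth; their number limits the precision.

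Gene symbols came from the platform annotation: 1 symbol was given for 23521 probe sets, several for 1814 and none for 15699. The highest-mean probe set with 1 symbol stood for a gene (22180 genes), and dim probe sets were kept. limma 3.58.1 in R 4.3.3 was fitted on all 24 arrays with 1 mean per group (residual degrees of freedom 16, prior 5.10). Contrasts were CBE minus PBS per strain, their mean, F-tests and pairs of strains. Tests were two-sided, adjusted by Benjamini-Hochberg over all genes within a contrast, at a threshold of 0.05. Replicates were grouped by the labels, no 2 arrays held identical values, and the procedure was tested on simulated data. Standard errors are the model's.

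The members and gene lists were chosen with earlier results of these data known. The genes named were all members, measured relatives and 2-5A partners, up to 3 called genes of smallest p per other list, and the 8 genes most correlated with the members' mean. Some listed genes are not analysed here. Promoters were RefSeq windows (GRCm38.p6) trimmed to the 250 bases before the start. Alternatives covered scaling between arrays, dim genes, probe set choice, the variance model, the arrays fitted, a replicate block, exact permutation and each array left out.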

Additional observations from a re-analysis of the deposited data

Results flagged for a closer look

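One probe set outside the gene table gave a signal above the control arrays. Probe set 17452126, which lists both Oas1a and Oas1g, rose with CBE by 0.31 ± 0.06 log2 units (mean of 4 strains, limma, adjusted p = 0.0411 over 41034 probe sets), with 11 of 12 CBE arrays above the PBS mean of their strain. By strain its difference was 0.46 (C57), 0.35 (FVB), 0.30 (SV129) and 0.12 (C3H), none past the threshold (adjusted p from 0.385 in C57 to 1.00 in C3H). How much of it comes from Oas1a and how much from Oas1g, whose own probe set rose, was not tested.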

How the results depend on the processing

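Of the calls over the 4 strains, those of Ifit1, Oasl2 and Ifit2 held under every alternative run. For Ifit2, the filter for genes above the median of all probe sets is not an independent check of that call. Ifit2 passed the filter through its CBE arrays: its mean was 4.46 with CBE and 3.96 with PBS, against a median of 4.18. The count of 5 members was 3 in an ordinary linear model, and 3 where only genes above the median of all probe sets were kept, since that left 4 members to test. All genes past the threshold were 161 of 22180 in the main fit, 110 in the ordinary linear model and 145 of 12291 under the filter. In C57 the count of 5 was 3 under that filter and 3 with only the strain's own arrays. There 72 of all genes passed in the main fit, 60 of 12291 under the filter and 101 of 22180 with its own arrays. In C3H the count of 2 was 1 in the ordinary linear model, where 2 of all genes passed (8 in the main fit). It was 0 with the C3H arrays alone, where 0 of all 22180 genes passed. In SV129 the count of 1 was 0 in the ordinary linear model (7 of all genes passed, against 25 in the main fit). For PBS levels the count of 2 was 0 in that model (2429 of all genes, against 2883). With 1 array left out at a time the counts ran from 4 to 6 over the 4 strains, 1 to 1 in SV129, 2 to 2 in FVB, 2 to 6 in C57, 2 to 2 in C3H, 0 to 0 for strain differences and 0 to 2 for PBS levels. In the same order, all genes past the threshold ran from 132 to 244, 7 to 219, 25 to 85, 30 to 136, 3 to 52, 0 to 25 and 1993 to 3044. C57 had 3 without C57 PBS replicate 2 (40 of all genes) and 2 without C57 CBE replicate 3 (30 of all genes), against 72 of all genes in the main fit. With the replicate number as a block, 4 members passed over the 4 strains (Oas2 at 0.0552) and 4 in C57 (Oas1b at 0.0616), with no other change of call. All genes past the threshold with that block were 148 over the 4 strains and 62 in C57. Equal numbers gave no clear sign of pairing: the 12 same-numbered pairs correlated between -0.19 and 0.20, 3 of them above 0.1, and 5 of 12 CBE arrays lay closest to their own number. These correlations used deviations from means of 3 arrays, so a weak pairing could be missed. PBS levels were not fitted with that block, which holds 1 PBS array per number and strain. Signs turned only for differences near 0. In SV129 Ifit2 became -0.026 and Oas3 -0.0103 after quantile normalization, where Ifit3 became 0.0035, and centring on array medians gave -0.023 for Ifit2 and -0.032 for Oas3, with -0.00343 for Oas3 in C3H. Leaving out single arrays turned Ifit3 over the 4 strains (-0.014 to 0.086), in SV129 (-0.198 to 0.201), in C57 (-0.0028 to 0.210) and in C3H (-0.231 to 0.038), Ifit2 in SV129 (-0.080 to 0.192), Oasl1 in SV129 (-0.087 to 0.025), and Oas3 in SV129 (-0.024 to 0.082) and C3H (-0.066 to 0.040). Oas1b over the 4 strains passed with a trended, robust variance (0.0407) and without any of 5 single arrays (lowest 0.0224). An exact permutation within strains gave unadjusted p-values of 0.00129 for Oas1b and 0.0256 for Oas3. These were not adjusted over all genes and add no call. The unadjusted limma p-values of the main fit were 4.41e-04 and 0.0111. Causes were not tested. The number of genes past the threshold over the 4 strains was 161, against 110 in the ordinary linear model and 244 without C3H CBE replicate 3. Near the dim end of the array a change can be understated; the dim filter removed Oasl1, Oas1b, Oas2 and Oas3.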
